A study of Mus musculus with 12 samples.

Results

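The VEGF system of NIH3T3 cells was described here through 10 genes. They were the 5 ligand genes Vegfa, Vegfb, Vegfc, Vegfd and Pgf, the 3 receptor tyrosine kinase genes Flt1, Kdr and Flt4, and the 2 neuropilin genes Nrp1 and Nrp2. The members were chosen by gene name from a table of read counts that lists 54446 genes. All 10 names were found once. Of these, 7 had enough counts to be among the 14724 genes tested, namely 4 of the 5 ligands, 1 of the 3 receptor tyrosine kinases and both neuropilins.

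RNA was sequenced from 12 samples of NIH3T3, an established line of mouse embryonic fibroblasts. Wild type cells were compared with dN-VEGF cells, whose Vegfa alleles both had the N-VEGF coding sequence removed with Cas9 and donor cassettes. Each line was kept in normoxia or in hypoxia, with 3 samples in each of the 4 groups, so the 2 questions are how low oxygen changes the members in each line and whether the line without N-VEGF differs in either condition. The dN-VEGF cells came from selected and sorted clones, so what belongs to the deletion and what belongs to the clone cannot be told apart. The labels call the samples triplicates without saying that they are separate cultures, and p-values then measure only the spread between these samples.

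VEGF ligands are secreted growth factors that bind receptor tyrosine kinases on endothelial cells and so drive the growth of blood vessels (VEGF-A) and lymphatic vessels (VEGF-C and VEGF-D). VEGF-A binds the kinases encoded by Flt1 and Kdr, placental growth factor (Pgf) and VEGF-B bind the product of Flt1 alone, and VEGF-C and VEGF-D bind the product of Flt4. Neuropilins are co-receptors that bind several VEGF forms and also semaphorins of class III. Fibroblasts are a source of VEGF ligands for neighbouring vessels, and Vegfa is a textbook target of the hypoxia-inducible transcription factors.

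The counts on genes ranged from 30519052 to 43056690 per sample, with a median of 39309933. Levels are given as CPM, counts scaled to library size after TMM adjustment. All 13 tested genes of a list of hypoxia-inducible genes were higher in hypoxia in both lines, with a median log2 fold change of 3.19 in wild type and 3.49 in dN-VEGF cells. Fibroblast markers were high in every sample (summed level of 9 genes 17325 to 43846 CPM). Of 9 endothelial markers, Emcn, Cldn5 and Robo4 had at most 1 count in any sample, and the summed level was 2.86 to 5.55 CPM in normoxia, 8.10 to 10.3 CPM in wild type hypoxia and 20.9 to 26.1 CPM in dN-VEGF hypoxia. Of these, Cdh5 reached 24.4 CPM, whereas Pecam1 had 9 to 23 counts in every sample. The summed level of 4 blood and macrophage markers was 4.85 to 13.0 CPM in normoxia and 35.5 to 59.0 CPM in hypoxia, with Csf1r at 0.845 to 53.8 CPM, Cd68 at 2.84 to 6.68 CPM, and Ptprc and Adgre1 at 0 to 2 counts. Pericyte and smooth muscle markers (5 genes) summed to 367 to 1285 CPM in normoxia and 2685 to 3378 CPM in hypoxia, and epithelial markers (4 genes) to 0.355 to 2.42 CPM. Whether cells of these types had a part in the member values was not tested.

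One library stood apart from its group. Wild type normoxia replicate 2 correlated with its own group at a mean of 0.956, where replicates 1 and 3 had 0.976. Its counts differed from theirs by a chi-square of 335 and 358 per gene, against 6.19 between replicates 1 and 3. To a lesser extent dN-VEGF normoxia replicate 2 differed from its group, by 77.3 and 71.5 against 3.94. The closest pair of replicates in the study had 2.86 per gene, where sampling alone gives about 1, so no library was counted as a copy of another. Rhox5, chosen after its values were seen because it separates the lines, stood at 4.30 CPM in wild type normoxia replicate 2, at 3.63 to 4.37 CPM in the other wild type samples and at 56.8 to 87.5 CPM in the dN-VEGF samples. Because both libraries are normoxia samples, values without wild type normoxia replicate 2 are given beside member results whose call or direction it changes.

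The sequences that define the dN-VEGF line lie in Vegfa. In the annotation of GRCm38, Vegfa is on the minus strand of chromosome 17 (46016993 to 46032369), and its exon 1 holds both an upstream start codon that is not ATG (46031888 to 46031890) and the canonical ATG (46031354 to 46031356). The N-VEGF coding stretch between them spans 46031357 to 46031890, 534 bases or 178 codons. The following are the target sites of the 2 guide RNAs on GRCm38, each in exon 1, 5′ to 3′ with the PAM in capitals. They are shown because Cas9 was directed to them, near either end of this stretch.
gRNA1, chr17:46031824-46031846, plus strand: tcggcagcccgccggcgaggAGG
gRNA4, chr17:46031396-46031418, minus strand: ctcgcagtccgagccggagaGGG
The predicted cuts lie 439 bases apart. Counts per gene cannot show whether this stretch is missing, since reads elsewhere in Vegfa are counted all the same. The stretch is 15.5% of the 3451 bases of Vegfa-202, the longest coding transcript. The exact ends of the removed stretch were not checked here. If exactly these bases were lost and reads were spread evenly over that transcript, the loss alone would move Vegfa counts of the dN-VEGF line by -0.24 on the log2 scale in both conditions, which bears on comparisons between the lines and not on those within a line.

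Upon hypoxia 4 members rose and 2 fell in each line. In wild type cells these were Vegfa, Vegfd, Pgf and Flt1, which rose, and Nrp1 and Nrp2, which fell. In dN-VEGF cells Vegfa, Vegfb, Vegfd and Pgf rose, and the same neuropilins fell. In wild type hypoxia against wild type normoxia 36.5% of all tested genes passed the test (18.2% higher, 18.3% lower), and 6 of 7 tested members did. In dN-VEGF hypoxia against dN-VEGF normoxia the share was 53.3% of all tested genes (26.9% higher, 26.4% lower), and again 6 of 7 members. Groups did not overlap for 6 of 7 members in wild type, 4 higher and 2 lower, beside 45% of all tested genes (23.2% higher, 21.8% lower). In dN-VEGF cells this was again 6 of 7, 4 higher and 2 lower, beside 70.5% (34.9% higher, 35.6% lower). The median log2 fold change of the 7 tested members was 1.38 in wild type and 0.92 in dN-VEGF cells, beside -0.07 and -0.01 over all tested genes. With library totals in place of TMM scaling the members split into 4 higher and 3 lower in wild type, and 3 higher and 2 lower in dN-VEGF cells. In those fits 45.6% of all tested genes passed in wild type (1892 higher, 4818 lower). In dN-VEGF cells 59.8% did (2249 higher, 6550 lower).

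**Figure D1:**
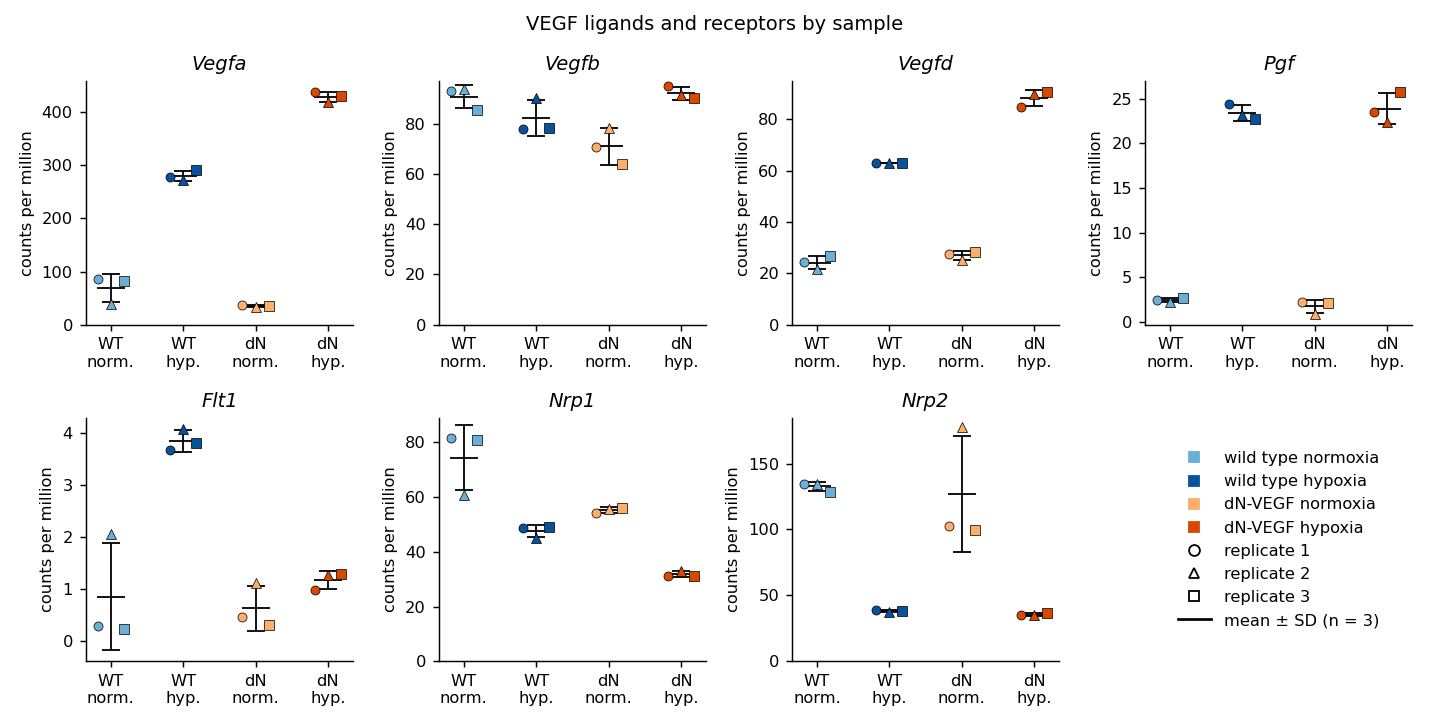
Level of each tested member in every sample, in CPM after TMM scaling (linear axes); each marker is 1 sample, its shape gives the replicate number, and the bars give the mean ± SD of 3 samples. Vegfa, Vegfd and Pgf are higher in every hypoxia sample than in every normoxia sample, Nrp2 is lower, and the triangle of wild type normoxia (replicate 2) lies apart from the other samples of its group for Vegfa, Flt1 and Nrp1.

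Vegfa, which encodes the main angiogenic ligand, was the most strongly expressed ligand gene in hypoxia. In wild type normoxia replicates 1, 2 and 3 it stood at 86.2, 39.4 and 82.6 CPM, and in wild type hypoxia at 277, 272 and 291 CPM. In dN-VEGF normoxia it stood at 37.3, 34.2 and 35.5 CPM, and in dN-VEGF hypoxia at 437, 419 and 430 CPM. The groups do not overlap in any of the 4 comparisons, with dN-VEGF normoxia lowest and dN-VEGF hypoxia highest. With library totals in place of TMM scaling the normoxia groups overlap, since wild type normoxia replicate 2 then stands at 39.9 CPM and the dN-VEGF normoxia samples at 36.1 to 41.6 CPM. Replicate 2 of wild type normoxia is close to the dN-VEGF normoxia samples. In wild type cells Vegfa rose by 2.01 ± 0.23 on the log2 scale (SE, n = 3 per group, edgeR adjusted p = 5.8e-05), a 4.04-fold change. It rose by 3.59 ± 0.25 in dN-VEGF cells (adjusted p = 6.6e-07), a 12.01-fold change. Both calls held in every one of 21 alternatives, with log2 fold changes of 1.74 to 2.195 and of 3.18 to 3.62. Without wild type normoxia replicate 2 the wild type response was 1.74 (SE 0.07).

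Pgf, whose product binds the Flt1 receptor, had the largest response of all members on the log2 scale when all 12 samples were used. Without wild type normoxia replicate 2 the wild type response of Flt1 was larger, at 3.92 against 3.18 for Pgf, and without dN-VEGF normoxia replicate 2 the dN-VEGF response of Vegfa was larger, at 3.55 against 3.45. Its level was 2.49, 2.21 and 2.68 CPM in wild type normoxia and 24.4, 23.2 and 22.7 CPM in wild type hypoxia. In dN-VEGF cells it was 2.26, 0.924 and 2.08 CPM in normoxia and 23.5, 22.4 and 25.7 CPM in hypoxia. Each hypoxia sample lay far above each normoxia sample, and the hypoxia samples of the lines were interleaved. The log2 fold change was 3.25 ± 0.25 in wild type (adjusted p = 3.2e-06) and 3.76 ± 0.26 in dN-VEGF cells (7.2e-07, both edgeR).

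Vegfd, a ligand of the Flt4 receptor, rose less and with little spread. It stood at 24.4, 21.6 and 26.6 CPM in wild type normoxia and at 62.9, 63.1 and 63.1 CPM in wild type hypoxia. In dN-VEGF cells it stood at 27.6, 25.1 and 28.5 CPM in normoxia and at 84.9, 89.7 and 90.5 CPM in hypoxia. The normoxia samples of the lines overlap, whereas all dN-VEGF hypoxia samples lie above all wild type hypoxia samples. The log2 fold change was 1.38 ± 0.10 in wild type (adjusted p = 1.4e-06) and 1.71 ± 0.10 in dN-VEGF cells (1.6e-07, both edgeR).

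Vegfb, whose product also binds the Flt1 receptor, was the ligand least altered by hypoxia. Its level was 93.1, 93.8 and 85.4 CPM in wild type normoxia and 77.8, 90.4 and 78.2 CPM in wild type hypoxia, and these samples overlap. The log2 fold change there was -0.14 ± 0.10 with an adjusted p of 0.28 (edgeR), and with library totals only it passed the test as a fall (-0.37, adjusted p = 0.0070). In dN-VEGF cells it went from 70.8, 78.3 and 63.9 CPM to 94.9, 91.3 and 90.1 CPM with no overlap, a rise of 0.38 ± 0.10 (adjusted p = 0.0080, edgeR). This rise was lost without a filter on low counts (0.28, adjusted p = 0.13) and with library totals in place of TMM (-0.02, adjusted p = 0.84).

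Vegfc, the ligand best known for lymphatic growth, was nearly absent. It had 5, 1 and 4 counts in wild type normoxia, 2, 7 and 2 in wild type hypoxia and 0 in all 6 dN-VEGF samples, and it was not tested. A count of 0 in the 3 libraries of a group allows a level of up to 0.0232 CPM in dN-VEGF normoxia and 0.0314 CPM in dN-VEGF hypoxia (3 counts over the group, counting error only). The wild type means were 0.0715 and 0.114 CPM.

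The receptor tyrosine kinases were low or not detected. Kdr, the main signalling receptor of VEGF-A, had 1 count in 1 of 12 samples. Flt4 had 0 to 3 counts per sample in all groups. At these counts no difference between groups could be seen. Flt1, which binds VEGF-A, VEGF-B and placental growth factor, had 12, 88 and 12 counts in wild type normoxia (0.274, 2.04 and 0.231 CPM) and 141, 119 and 149 counts in wild type hypoxia (3.66, 4.08 and 3.80 CPM). In dN-VEGF cells it had 21, 47 and 12 counts in normoxia (0.452, 1.11 and 0.294 CPM) and 31, 39 and 42 counts in hypoxia (0.971, 1.25 and 1.29 CPM). Replicate 2 of both normoxia groups was higher than the others.

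Flt1 rose by 2.19 ± 0.69 in wild type hypoxia (adjusted p = 0.028, edgeR), and its change of 0.92 ± 0.73 in dN-VEGF cells did not pass the test (adjusted p = 0.31). The wild type call was lost on leaving out wild type normoxia replicate 1 or 3 or any of the wild type hypoxia samples (log2 fold change 1.72 to 2.22, adjusted p 0.063 to 0.076). It was also lost in the 6 wild type samples alone, without the replicate block (2.18, adjusted p = 0.097) and with it (2.79, adjusted p = 0.083). Without wild type normoxia replicate 2 it was stronger, at 3.92 ± 0.41 (adjusted p = 4.7e-06), and the dN-VEGF change of 0.91 ± 0.35 then passed the test as well (adjusted p = 0.036). Without dN-VEGF normoxia replicate 2 the dN-VEGF change was 1.63 ± 0.83 (adjusted p = 0.14), and without both normoxia samples numbered 2 it was 1.62 ± 0.26 and passed (adjusted p = 1.5e-05).

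Both neuropilin genes fell upon hypoxia. Nrp1 stood at 81.7, 60.9 and 80.8 CPM in wild type normoxia and at 48.6, 45.2 and 49.2 CPM in wild type hypoxia. In dN-VEGF cells it stood at 54.1, 55.7 and 55.8 CPM in normoxia and at 31.1, 33.0 and 31.3 CPM in hypoxia. The 4 groups do not overlap, with dN-VEGF hypoxia lowest. With library totals only, the normoxia groups of the lines overlap (wild type replicate 2 at 61.6 CPM, dN-VEGF replicate 3 at 62.9 CPM). The log2 fold change of Nrp1 was -0.64 ± 0.11 in wild type (adjusted p = 0.00099) and -0.80 ± 0.11 in dN-VEGF cells (0.00014, both edgeR). The wild type call was lost with the replicate block in the 6 wild type samples alone (-0.66, adjusted p = 0.052).

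Nrp2 fell more than Nrp1. It stood at 135, 135 and 129 CPM in wild type normoxia and at 39.1, 37.7 and 38.5 CPM in wild type hypoxia. In dN-VEGF cells it stood at 103, 178 and 100 CPM in normoxia and at 35.2, 35.0 and 36.4 CPM in hypoxia. Replicate 2 of dN-VEGF normoxia was the highest sample of all. The log2 fold change of Nrp2 was -1.79 ± 0.19 in wild type (adjusted p = 3.0e-05) and -1.83 ± 0.19 in dN-VEGF cells (1.3e-05, both edgeR), to 0.290 and 0.280 of its normoxia level. Nrp2 overlaps the antisense gene Gm29083 and the gene model Gm37121, and Nrp1 overlaps Mir1903. Whether counting used strand was not stated, so reads of Nrp2 and its antisense partner cannot be told apart.

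**Figure D2:**
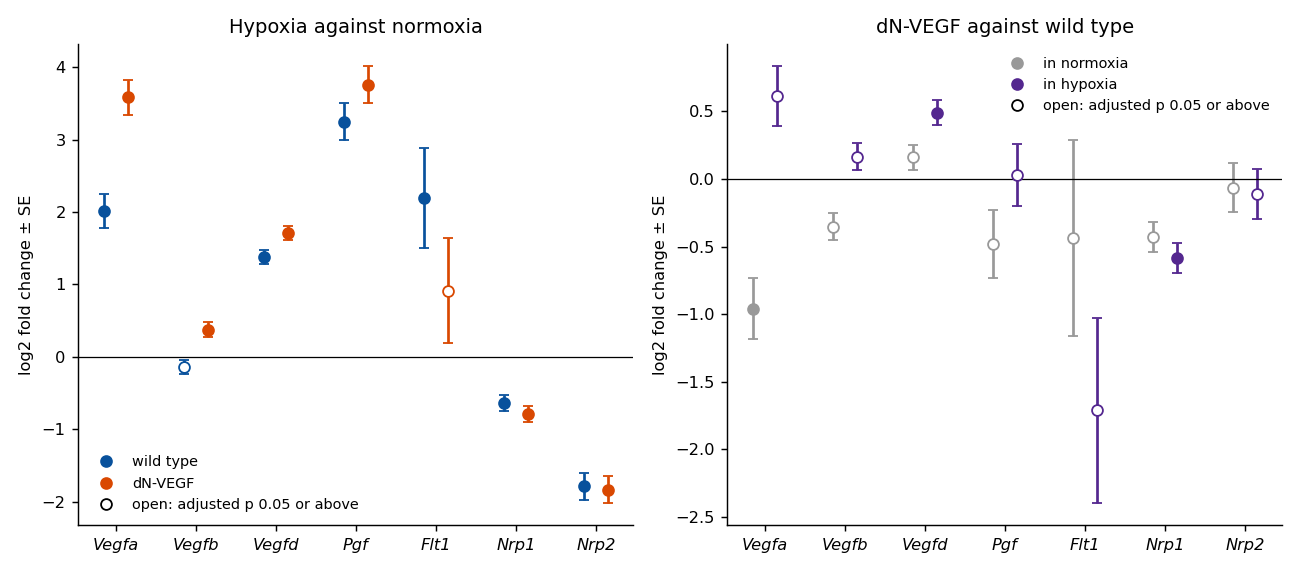
Log2 fold changes of the 7 tested members ± SE from edgeR (y axis), for hypoxia against normoxia in each line (left) and for dN-VEGF against wild type in each condition (right). Filled points have an adjusted p below 0.05; Vegfa shows the widest gap between the lines on the left, at 2.01 and 3.59, and Flt1 the widest error bars.

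Levels of different genes were compared per kilobase of the longest coding transcript. In wild type normoxia Vegfb led at 70.8 ± 3.63 CPM per kilobase (SD, n = 3). Nrp1 (20.7), Vegfa (20.1) and Nrp2 (19.7) followed and overlapped each other. Vegfd stood at 11.8, Pgf at 1.18 and Flt1 at 0.123 CPM per kilobase. The Flt1 mean rested on replicate 2, at 0.296 against 0.0397 and 0.0335 in replicates 1 and 3. In dN-VEGF normoxia Vegfb also led, at 55.4 ± 5.65, with Nrp2 (18.9) and Nrp1 (15.4) overlapping. Vegfd (13.2) then lay above Vegfa (10.3) with no overlap, taking 3451 bases for Vegfa in both lines. Without the N-VEGF stretch 2917 bases would remain in dN-VEGF cells, and Vegfa per kilobase would be higher there. The order and overlap of Vegfd and Vegfa were not worked out with that length.

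In hypoxia Vegfa came first in both lines. It stood at 81.2 ± 2.82 CPM per kilobase in wild type and at 124 ± 2.71 in dN-VEGF cells, followed by Vegfb at 64.1 and 71.9 and Vegfd at 30.8 and 43.1. Each of these neighbours was separated from the next with no overlap. Pgf reached 11.3 and 11.5 CPM per kilobase, near Nrp1 at 13.2 and 8.85 and above Nrp2 at 5.72 and 5.29. Flt1 stood at 0.558 in wild type and 0.170 in dN-VEGF cells. With the summed length of all exons in place of the transcript, a choice made after seeing the data, Vegfb still led in normoxia and Vegfa in hypoxia, and Nrp1 stood in the fifth place in every group.

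The summed level of Vegfa, Vegfb, Vegfd and Pgf was 104 ± 7.32 CPM per kilobase in wild type normoxia, 187 ± 3.94 in wild type hypoxia, 79.8 ± 4.41 in dN-VEGF normoxia and 251 ± 3.25 in dN-VEGF hypoxia. The hypoxia groups lay above the normoxia groups with no overlap, and the dN-VEGF samples were lowest in normoxia and highest in hypoxia. Vegfa made up 19.1% ± 6.24 of the ligand level in wild type normoxia and 43.4% ± 1.97 in wild type hypoxia (SD, n = 3). In dN-VEGF cells its share was 13.0% ± 1.01 in normoxia and 49.5% ± 0.44 in hypoxia. These dN-VEGF shares of Vegfa and the dN-VEGF sums take the full 3451 bases of Vegfa-202. They would be higher over the 2917 bases left without the N-VEGF stretch. The share of Vegfb went the other way, from 68.4% to 34.2% in wild type and from 69.3% to 28.7% in dN-VEGF cells. These are transcript levels per mapped read; fewer cells with a transcript and less of it per cell cannot be told apart in bulk RNA.

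**Figure D3:**
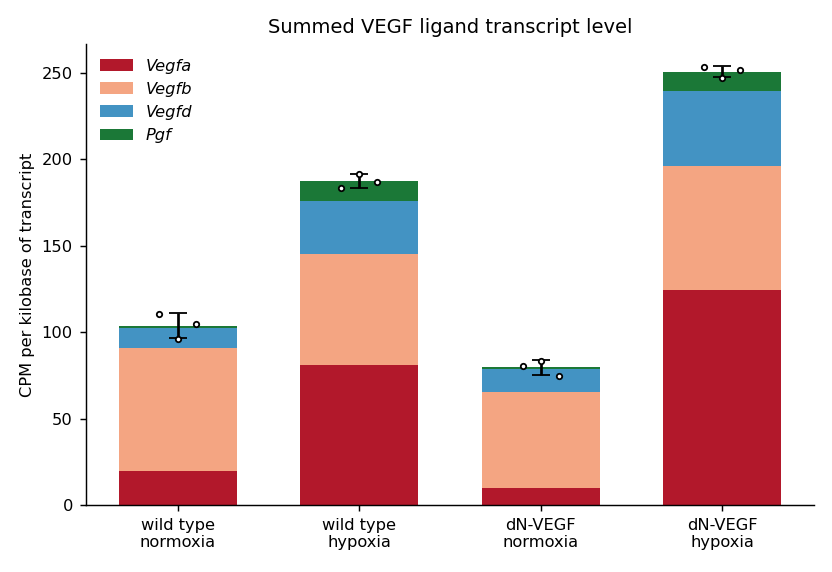
Mean level of Vegfa, Vegfb, Vegfd and Pgf, in CPM per kilobase of transcript, stacked for each group (y axis from 0); open points are the summed level of each of the 3 samples, and error bars give the SD of the sum. The sum goes from 104 to 187 in wild type and from 79.8 to 251 in dN-VEGF cells, most of it through Vegfa.

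The lines were compared next within each condition. In normoxia 4.36% of all tested genes passed the test (1.39% higher, 2.97% lower in dN-VEGF cells), and 1 of 7 tested members did. Vegfa was lower in dN-VEGF cells, at 34.2 to 37.3 CPM against 39.4 to 86.2 CPM, by -0.96 ± 0.22 on the log2 scale (adjusted p = 0.039, edgeR). Vegfb (-0.35 ± 0.10, adjusted p = 0.070) and Nrp1 (-0.43 ± 0.11, adjusted p = 0.053) were also below wild type with no overlap, without passing the test. Both passed with DESeq2 (adjusted p = 0.020 and 0.0071), and Vegfb also with library totals only (-0.40, adjusted p = 0.038). For Vegfa and Nrp1 this separation was lost with library totals only. Groups did not overlap for these 3 members, all lower, beside 16.3% of all tested genes (6.55% higher, 9.72% lower). Vegfd differed by 0.16 ± 0.09, Pgf by -0.48 ± 0.25 and Nrp2 by -0.07 ± 0.18, with adjusted p from 0.34 to 0.88. Nrp2 passed the test without dN-VEGF normoxia replicate 2, at -0.38 (adjusted p = 0.022), and without both normoxia samples numbered 2, at -0.37 (adjusted p = 2.7e-05). Pgf ranged from -0.70 without dN-VEGF normoxia replicate 1 to -0.17 without dN-VEGF normoxia replicate 2, and did not pass in any of the 12 fits without a single sample.

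The normoxia difference of Vegfa depended on the set of samples. Its call was lost on leaving out any sample other than wild type normoxia replicate 2 (log2 difference -0.98 to -0.77, adjusted p 0.063 to 0.15), with library totals only (-1.04, adjusted p = 0.057) and in the 6 normoxia samples alone (-0.97, adjusted p = 0.40). Wild type normoxia replicate 2 had the wild type level closest to dN-VEGF normoxia, so leaving it out had to widen the difference. Without it, with replicates 1 and 3 alone as wild type normoxia, the difference was -1.23 ± 0.07 (adjusted p = 1.5e-07). Vegfb (-0.32, adjusted p = 0.015) and Nrp1 (-0.54, adjusted p = 4.9e-05) then passed the test too, and 48.9% of all tested genes did. Flt1 turned from -0.44 ± 0.73 (adjusted p = 0.79) to 1.30 ± 0.48 (adjusted p = 0.039). With the replicate number as a block over all 12 samples, 2 members passed the test, Vegfa at -0.92 (adjusted p = 0.044) and Vegfb at -0.36 (adjusted p = 0.047). With the same block in the 6 normoxia samples alone Vegfa stood at -0.88 (adjusted p = 0.26).

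In hypoxia 20.1% of all tested genes passed the test between the lines (10.8% higher, 9.36% lower in dN-VEGF cells), and 2 of 7 tested members did. Vegfd was higher in dN-VEGF cells by 0.49 ± 0.09 on the log2 scale and Nrp1 was lower, at -0.58 ± 0.11 (adjusted p = 0.0049 for each, edgeR). Vegfa was 1.53-fold the wild type level with no overlap, a log2 difference of 0.61 ± 0.22 that missed the threshold (adjusted p = 0.074). Flt1 stood at 0.305 of the wild type level with no overlap, a log2 difference of -1.71 ± 0.69 (adjusted p = 0.10). Pgf differed by 0.03 ± 0.23 and Nrp2 by -0.11 ± 0.18 (adjusted p = 0.95 and 0.71), and Vegfb by 0.17 ± 0.10 (adjusted p = 0.28). Groups did not overlap for 5 of 7 members, with Vegfa and Vegfd higher and Flt1, Nrp1 and Nrp2 lower, beside 59.8% of all tested genes (29.7% higher, 30.1% lower).

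In the 6 hypoxia samples alone, which leave out both normoxia libraries that stood apart, 5 members passed the test with nearly the same differences. Vegfa was higher by 0.61 ± 0.05 (adjusted p = 5.3e-08), Vegfd by 0.48 ± 0.06 (1.5e-06) and Vegfb by 0.16 ± 0.06 (0.046). Flt1 was lower at -1.71 ± 0.16 (8.6e-08) and Nrp1 at -0.59 ± 0.06 (5.3e-07, all edgeR). In that fit 57% of all tested genes passed. DESeq2 called Vegfa, Vegfd and Nrp1 over all 12 samples (adjusted p = 0.044 for Vegfa), beside 20.9% of all genes it tested. With library totals in place of TMM scaling the members that passed were Nrp1 (-0.80, adjusted p = 0.0034) and Flt1 (-1.93, adjusted p = 0.047), both lower, whereas Vegfa differed by 0.39 (adjusted p = 0.29) and Vegfd by 0.27 (adjusted p = 0.15). Of all tested genes 26.8% passed with that scaling, 673 higher and 3272 lower, so all genes leaned to lower calls.

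The difference between the responses of the lines to hypoxia was tested as an interaction. Of all tested genes 3.36% passed (2.21% higher, 1.15% lower), and 1 of 7 tested members did. The response of Vegfa was larger in dN-VEGF cells by 1.57 ± 0.32 on the log2 scale (adjusted p = 0.028, edgeR), a 2.98-fold difference. Both ends of the response contributed, since the dN-VEGF samples were below wild type in normoxia and above it in hypoxia. Vegfb differed by 0.52 ± 0.14 (adjusted p = 0.068), and it passed with the replicate block (0.53, adjusted p = 0.048) and with DESeq2 (0.53, adjusted p = 0.0098). Vegfd differed by 0.33 ± 0.13 (0.18), Pgf by 0.51 ± 0.34 (0.42) and Flt1 by -1.28 ± 0.997 (0.50). The neuropilins responded with differences of -0.15 ± 0.16 for Nrp1 and -0.05 ± 0.26 for Nrp2 (adjusted p = 0.62 and 0.94).

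The Vegfa interaction kept its sign in all 19 alternatives, at 1.39 to 1.84. Its call was lost on leaving out any sample other than replicate 2 of wild type normoxia or of dN-VEGF normoxia (1.39 to 1.60, adjusted p 0.064 to 0.089). Leaving out wild type normoxia replicate 2, the wild type sample with the lowest Vegfa, had to enlarge it, to 1.84 ± 0.09 (adjusted p = 1.0e-07). In that fit Vegfb (0.48, adjusted p = 0.0088), Vegfd (0.39, adjusted p = 0.0074) and Flt1 (-3.01, adjusted p = 0.00091) also passed the test, as did 44.4% of all tested genes.

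**Figure D4:**
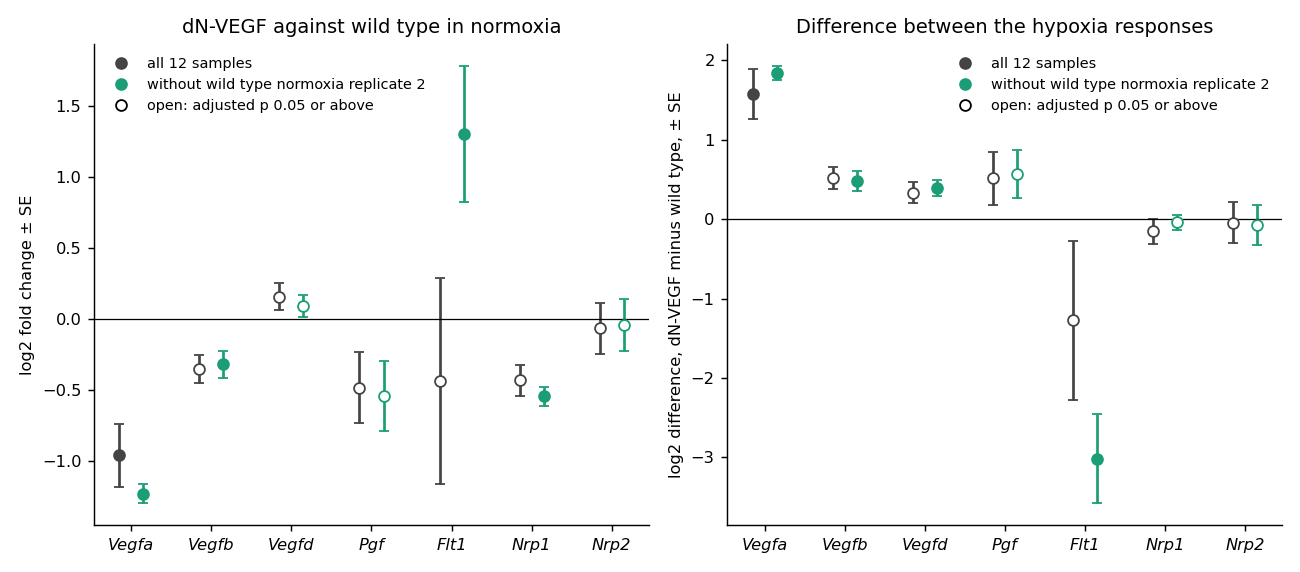
Log2 differences ± SE from edgeR for the 7 tested members with all 12 samples (grey) and without wild type normoxia replicate 2 (green), for dN-VEGF against wild type in normoxia (left) and for the difference between the hypoxia responses, dN-VEGF minus wild type (right). Filled points have an adjusted p below 0.05; Flt1 moves from -0.44 to 1.30 on the left and from -1.28 to -3.01 on the right, and the error bars of Vegfa shrink.

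The levels of the members moved together to different degrees over the 12 samples. Pearson correlations of log2 CPM were 0.95 for Vegfa with Vegfd, 0.96 for Vegfa with Pgf and 0.95 for Vegfd with Pgf. Nrp2 ran against them, at -0.93 with Vegfa, -0.97 with Vegfd and -0.98 with Pgf. Vegfb correlated with them at 0.32 to 0.50. The 12 samples are 4 groups of 3, so these values mostly describe the contrast between conditions.

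Among the other 14723 tested genes, those with the pattern most like Vegfa were Ddit3, a stress-response transcription factor (r = 0.998 over 12 samples), Jcad, Lmbr1l, Rint1 and Stbd1 (all 0.996). Ddit3 had a mean of 26.6 CPM in wild type normoxia, 155 in wild type hypoxia, 13.9 in dN-VEGF normoxia and 286 in dN-VEGF hypoxia, the same order of groups as Vegfa. Pgf was most like Adm, which encodes the vasodilator peptide adrenomedullin (0.995), Pkp2 and Mgarp. Vegfd was most like Mt2, a metallothionein gene (0.997), Vhl, whose product targets hypoxia-inducible factors for degradation, and Lmf1. Nrp1 was most like Olfml2b (0.987), Acsl3 and Prokr1, and Nrp2 was most like Nkiras1 (0.992), Ank and Steap3. Flt1 was most like Rbm15 (0.981), Ralb and Ptgs2os2. For Vegfb the nearest genes were Tm9sf4 (0.919), Arfip2 and Wiz.

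The genes around the members were taken from lists of 112 genes, of which 100 were tested. These include the 13 hypoxia-inducible genes, listed as a check of the oxygen labels, which all rose. Of the other 87, 19 rose and 18 fell upon hypoxia in wild type cells, where 36.5% of all tested genes passed, and 25 rose and 21 fell in dN-VEGF cells, where 53.3% did. With library totals in place of TMM scaling the counts were 17 and 34 in wild type and 13 and 41 in dN-VEGF cells. All tested genes moved the same way in those fits. In wild type 1892 were higher and 4818 lower (45.6%), and in dN-VEGF cells 2249 were higher and 6550 lower (59.8%). The balance of directions thus depended on scaling for all genes and not for the lists in particular. Without wild type normoxia replicate 2 the list counts were 31 and 23, and 33 and 30, beside 54% and 67.1% of all tested genes. The counts per list below are to be read beside the all-gene shares of the same fits.

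Of 10 tested neuropilin ligands and plexins, 3 rose and 1 fell in wild type, and 3 rose and 2 fell in dN-VEGF cells. The median log2 fold changes were 0.15 and 0.30, and with library totals they were -0.11 and -0.049. The wild type median was -0.061 without wild type normoxia replicate 2, and in dN-VEGF cells 4 then rose and 3 fell. Plxna4, a plexin that forms semaphorin receptors with neuropilins, rose by 1.96 ± 0.11 and 1.90 ± 0.11 (edgeR adjusted p = 2.7e-07 and 1.6e-07). Plxnd1 fell (-0.86 and -1.17), and Plxna1 fell by 0.51 in dN-VEGF cells, beside -0.14 in wild type (adjusted p = 0.23). Sema3c, a neuropilin-binding semaphorin, rose by 1.16 ± 0.26 in wild type (adjusted p = 0.0048). It was at a mean of 2.40 and 5.37 CPM in wild type normoxia and hypoxia and at 0.00718 and 0.0104 CPM in the dN-VEGF groups, where no fold is given.

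Of 40 tested signalling proteins below the receptors, 7 rose and 2 fell in wild type, and 12 rose and 6 fell in dN-VEGF cells, with medians of 0.03 and 0.14. With library totals only the counts were 5 and 12 in wild type and 4 and 15 in dN-VEGF cells, with medians of -0.18 and -0.26. They were 15 and 6 in wild type (median 0.18) and 16 and 10 in dN-VEGF cells without wild type normoxia replicate 2. Map2k1, which encodes the kinase MEK1, rose by 1.84 ± 0.16 and 2.36 ± 0.17 (edgeR adjusted p = 9.4e-06 and 9.0e-07). Shc1, an adaptor of receptor tyrosine kinases, rose by 0.92 and 1.42, and Ptk2, which encodes focal adhesion kinase, by 0.59 and 0.81. Src, a kinase downstream of VEGF receptors, differed by -0.04 ± 0.12 in wild type (adjusted p = 0.79) and fell by 0.32 ± 0.12 in dN-VEGF cells (adjusted p = 0.039).

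Of 15 tested genes for binding, processing and inhibition outside the cell, 4 rose and 8 fell in wild type, and 3 rose and 6 fell in dN-VEGF cells. Medians were -0.40 and -0.15, and with library totals -0.64 and -0.55. With wild type normoxia replicate 2 left out, 4 rose and 9 fell in wild type, and 5 rose and 8 fell in dN-VEGF cells. Ccbe1, needed for the processing of VEGF-C, fell in both lines (-0.58 ± 0.09 and -1.68 ± 0.09, edgeR adjusted p = 0.00052 and 1.4e-07). Thbs2, an inhibitor of angiogenesis, also fell in both (-1.74 ± 0.21 and -1.73 ± 0.21, adjusted p = 8.2e-05 and 4.7e-05). Sparc, whose product binds VEGF-A, rose by 0.77 and 0.87, and Itgav, an integrin subunit, rose by 0.85 ± 0.12 and 1.31 ± 0.12 (adjusted p = 0.00020 and 5.0e-06).

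Of 11 tested feedback inhibitors of receptor tyrosine kinase signalling, 3 rose and 3 fell in wild type, and 5 rose and 3 fell in dN-VEGF cells, with medians of 0.33 and 0.38. With library totals 3 rose and 4 fell in wild type, and 3 rose and 5 fell in dN-VEGF cells (medians 0.089 and -0.011). Without wild type normoxia replicate 2 the wild type median was 0.22, with 5 higher and 3 lower there and 6 and 3 in dN-VEGF cells. Dusp1, a phosphatase of MAP kinases, rose by 3.33 ± 0.14 and 2.85 ± 0.13 (edgeR adjusted p = 3.2e-08 and 4.7e-08). Spry4 fell (-1.54 and -2.39), and Spred2 rose by 0.76 and 1.37. Of 7 tested proteins that bind Vegfa mRNA, 2 rose and 1 fell in wild type, and 2 rose and 2 fell in dN-VEGF cells, with medians of -0.40 and -0.11. With library totals 2 rose and 4 fell in wild type, and 1 rose and 4 fell in dN-VEGF cells (medians -0.60 and -0.51). In wild type 3 rose and 1 fell without wild type normoxia replicate 2, with a median of -0.037. Zfp36, which encodes an mRNA-destabilizing protein, rose by 0.93 ± 0.11 and 1.81 ± 0.11 (adjusted p = 7.3e-05 and 3.1e-07). Zfp36l2 rose by 0.72 and 0.46. Zfp36l1 fell by 1.05 in wild type, beside -0.067 in dN-VEGF cells (adjusted p = 0.88). Hnrnpa2b1 fell by 1.39 in dN-VEGF cells, beside -0.63 in wild type (adjusted p = 0.12).

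Of 4 tested genes of the related PDGF family, 3 fell in wild type and 2 fell in dN-VEGF cells, with medians of -1.26 and -0.91. With wild type normoxia replicate 2 left out 1 rose and 3 fell in wild type, and 3 fell in dN-VEGF cells. Pdgfrb fell (-1.94 ± 0.26 and -1.44 ± 0.26, edgeR adjusted p = 0.00019 and 0.00075), and so did Pdgfc (-0.59 and -0.70). Pdgfra fell by 2.32 ± 0.49 in wild type (adjusted p = 0.0036) and differed by -1.11 ± 0.47 in dN-VEGF cells (adjusted p = 0.068). Among the hypoxia-inducible genes Bnip3, P4ha1 and Kdm3a had the smallest p in both lines. Bnip3 rose by 4.45 ± 0.11 and 4.54 ± 0.11 (adjusted p = 1.7e-09 and 6.4e-10).

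Between the lines, of all 100 list genes, 7 were higher and 9 lower in dN-VEGF normoxia, and 14 were higher and 14 lower in dN-VEGF hypoxia, beside 4.36% and 20.1% of all tested genes. With library totals only they were 5 and 6 in normoxia and 8 and 28 in hypoxia. Beside them, of all tested genes 178 were higher and 384 lower in normoxia, and 673 higher and 3272 lower in hypoxia. With wild type normoxia replicate 2 left out they were 39 and 27 in normoxia and 34 and 26 in hypoxia, beside 48.9% and 42.4% of all tested genes. The interaction test was passed by 3 of the 100 list genes, beside 3.36% of all tested genes. Among the 3, Dusp6 was chosen after its values were seen. Zfp36 responded more in dN-VEGF cells, by 0.88 ± 0.15 (edgeR adjusted p = 0.016). Ccbe1 responded with a difference of -1.10 ± 0.13 (adjusted p = 0.0031), and Dusp6, a phosphatase of ERK, with -1.02 ± 0.23 (adjusted p = 0.041). With library totals only 9 list genes passed this test, all of them lower, beside 147 higher and 756 lower of all tested genes. Without wild type normoxia replicate 2 the counts were 24 higher and 28 lower, beside 44.4% of all tested genes.

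The start sites of the members were searched for the core of the hypoxia response element, the site bound by hypoxia-inducible factors, in its forms ACGTG and GCGTG on both strands. Windows of 300 bases around RefSeq gene starts on GRCm38.p6 were used, 12 of them for all 10 members. ACGTG was in 1 of the 12 member windows, beside 19.6% of 32851 windows of all genes. GCGTG was in 7 of the 12, beside 32.4%. GCGTG was found in the windows of Nrp1 and Nrp2, which fell in hypoxia, of Kdr, which was barely detected, and of Vegfb, as well as in those of Vegfa, Pgf and Flt1. The windows of Vegfc, Vegfd and Flt4 held neither form, nor did that at the first exon of Vegfa. Sequence outside the windows was not searched, so a gene without a match here may hold the motif farther from its start. As examples, 1 match is shown for each of Vegfa, Pgf and Flt1, with the motif in capitals, as the gene is read.
Vegfa, chr17:46025360-46025384, minus strand: agtgcgtgccCACGTcagagagcaa
Pgf, chr12:85177423-85177447, minus strand: cctgcggggtCACGCgcactcaggt
Flt1, chr5:147726181-147726205, minus strand: agcgccaccgCACGCgcgctctggc
CACGT and CACGC are the motifs as read on the opposite strand. The Vegfa site belongs to a second RefSeq start inside the gene and also holds GCGTG next to the marked motif. These are matches of letters, and binding was not measured.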

How the data were processed

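The deposited table holds raw read counts per gene, which the authors made with no scaling from single-read TruSeq v2 libraries. Per the submitters' notes and methods, reads were trimmed with Trim Galore and cutadapt 1.10, aligned to GRCm38.p6 (release 94) with TopHat2 2.1.0 and Bowtie2 2.2.6, and counted with HTSeq 0.6.1. The strand setting is not given in the sources used here.

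Groups came from the sample titles. Counts were tested with edgeR 4.0.16 in R 4.3.3 (limma 3.58.1 as its library): filterByExpr, TMM, 1 mean per group over all 12 samples, quasi-likelihood F test, and p-values adjusted by Benjamini-Hochberg across 14724 genes. A gene passed at an adjusted p below 0.05, and SE is the log2 fold change divided by the square root of F. Log2 CPM for correlations used a prior count of 2. Lengths came from GENCODE vM21. On simulated data the fit for wild type hypoxia against normoxia recovered 56.1% of 2-fold and 88.0% of 4-fold changes with 7 false calls among 14442 genes. There 98 genes were changed 2-fold and 100 4-fold, and all others had 1 common mean over the groups. No simulated library stood apart, so the false calls given there do not carry over to these data.

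Alternatives were DESeq2 1.42.0 (Wald test, the authors' tool), RLE factors, a filter of 10 counts or none at all, library totals alone, leaving out single samples, both normoxia samples numbered 2 left out, only the 6 samples of a comparison, a block for replicate number, and a fold change of at least 2. Named genes are all members, in each list the 3 with the smallest p in either hypoxia comparison plus Src and Itgav, and for each tested member the 3 most correlated genes (5 for Vegfa). The members and lists were chosen with earlier results of these data known. Same-numbered samples deviated from their group means with a correlation of 0.36 to 0.50 between the normoxia groups, where samples 1 and 3 also correlated with each other at 0.35 and 0.36, and at -0.02 to 0.11 in the other comparisons. Since every normoxia pair was above 0.1, the block is given beside that comparison.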

Additional observations from a re-analysis of the deposited data

Results flagged for a closer look

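The response of Vegfa to hypoxia differed between the lines, which the interaction term of the edgeR fit tested directly. The response was larger in dN-VEGF cells by 1.57 on the log2 scale (SE 0.32, adjusted p = 0.028), with means of 69.4 and 280 CPM in wild type normoxia and hypoxia and of 35.7 and 429 CPM in dN-VEGF cells. All 3 dN-VEGF samples were below all 3 wild type samples in normoxia and above them in hypoxia. With library totals in place of TMM scaling the normoxia samples of the lines overlapped, and the difference was 1.43 (adjusted p = 0.048). DESeq2 gave a difference of 1.58 (adjusted p = 0.00018). The level of Vegfa in wild type normoxia replicate 2, the library that stood apart, moved with this result, and the difference was 1.84 without it. The call was lost on leaving out any of 10 other single samples (1.39 to 1.60, adjusted p 0.064 to 0.089) and was kept in 2 of 12 such fits.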

How the results depend on the processing

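Over 721 refits of single members, 638 kept their direction and their side of the threshold, 34 lost and 38 gained a call, and 11 changed sign. Sign changes with library totals only were Vegfb in dN-VEGF hypoxia against normoxia (-0.024) and, between the lines in hypoxia, Vegfb (-0.054) and Pgf (-0.19). Nrp2 between the lines in normoxia was 0.013 without a filter and -0.38 to 0.089 with 1 sample left out. Flt1 there ranged from -1.15 to 1.30 with 1 sample left out and was 0.60 without both normoxia samples numbered 2. Pgf between the lines in hypoxia ranged from -0.029 to 0.071 with 1 sample left out. The Nrp2 interaction ranged from -0.20 to 0.27 with 1 sample left out and was 0.25 without both samples numbered 2, where it passed the test (adjusted p = 0.011).

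Of the members, 1 passed between the lines in normoxia with all samples. This count was 0 to 4 with 1 sample left out, 3 with DESeq2, 2 with at least 10 counts in every sample, 4 without both samples numbered 2, 2 with the replicate block, 0 in the 6 samples alone with or without the block, and 0 at 2-fold. Of all tested genes 1.1% to 48.9% passed with 1 sample left out and 8.16% with DESeq2. With at least 10 counts 4.54% passed, without both samples numbered 2 53.6%, and with the block 4.37%. In the 6 normoxia samples alone 0.108% passed, and 0.00718% with the block there. Between the lines in hypoxia 2 passed; this was 2 to 4 with 1 sample left out, 5 without both samples numbered 2, 5 in the 6 samples alone with or without the block, and 0 at 2-fold. In the interaction 1 passed; this was 0 to 4 with 1 sample left out, 2 with DESeq2, with at least 10 counts or with the replicate block, and 5 without both samples numbered 2. The block changed no other count of members by more than 1.5 times. Between the lines in hypoxia 10.1% to 42.4% of all tested genes passed with 1 sample left out and 55.8% without both samples numbered 2. In the 6 hypoxia samples alone 57% passed, and 61.1% with the block there. In the interaction 0.493% to 44.4% passed with 1 sample left out and 52.8% without both. With DESeq2 10.3% passed there, with at least 10 counts 4.64%, and with the block 3.29%.

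Of the 100 list genes, the 13 hypoxia-inducible ones included, 50 passed in wild type hypoxia (28 at 2-fold, 76 without both samples numbered 2, 32 with the block in 6 samples) and 59 in dN-VEGF hypoxia (34 at 2-fold). Between the lines in normoxia 16 passed (4 at 2-fold, 4 to 66 with 1 sample left out, 77 without both samples numbered 2, 1 in 6 samples, 0 with the block there). In hypoxia 28 passed (7 at 2-fold, 17 to 60 with 1 left out, 67 without both, 66 in 6 samples, 69 with the block there). In the interaction 3 passed (12 with DESeq2, 9 with library totals, 1 to 52 with 1 left out, 65 without both). Of all tested genes 65.3% passed in wild type hypoxia without both samples numbered 2, and 13.3% with the block in 6 samples. Without both, 53.6% passed between the lines in normoxia, 55.8% in hypoxia and 52.8% in the interaction. With library totals 6.13% passed in the interaction. Shares for the other fits between the lines and the interaction, except at 2-fold, are those given with the members. Library totals in place of TMM moved the median log2 fold change of all genes from -0.07 to -0.30 in wild type hypoxia, from -0.01 to -0.41 in dN-VEGF hypoxia, from -0.01 to -0.23 between the lines in hypoxia and from 0.03 to -0.15 in the interaction. The cause of these changes was not tested. Depth limits Vegfc, Kdr and Flt4, at 0 to 7 counts.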
